A study of Mus musculus with 12 samples.

Results

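Hox genes encode homeodomain transcription factors that give cells their position along the body axis. Mammals carry them in 4 clusters, which in the mouse lie on chromosomes 6 (Hoxa), 11 (Hoxb), 15 (Hoxc) and 2 (Hoxd), and genes at the same place in different clusters are paralogs that share a number. Low numbers are used towards the head, high numbers towards the tail and, in limbs, towards the digits, and Polycomb proteins keep unused genes of the clusters silent while Trithorax proteins keep used ones active. The genes described here are the 39 protein-coding genes named Hoxa, Hoxb, Hoxc or Hoxd with a number, chosen by name and biotype alone, out of 78275 gene IDs measured. There are 11 in Hoxa, 10 in Hoxb, 9 in Hoxc and 9 in Hoxd. Of these, 23 had enough counts to be tested, among 15030 tested genes.

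They were measured by poly(A) RNA-seq in C2C12 cells, an established mouse myoblast line derived from leg muscle that fuses into myotubes when serum is withdrawn. Cells were transfected with a non-targeting siRNA (control) or an siRNA against Zfp143 (knockdown), which encodes a zinc finger protein that binds many promoters. Uninduced cells were kept in growth medium with 10% fetal bovine serum, and induced cells were moved to 1% horse serum 24 hours after transfection for 5 days. There are 4 groups of 3 libraries, all in 1 batch by the labels. Nothing says that replicates came from different cultures, and the spread behind each p-value may be technical. C2C12 is 1 line, and transfection leaves an unknown share of cells without siRNA.

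Libraries held 13520906 to 19068323 estimated counts, so that 3 counts were worth 0.157 to 0.222 CPM (counts scaled to a common library total). Zfp143 stood at 12.2, 14.3 and 13 TPM (a level per transcript length, as a share of all transcripts) in uninduced control cells and at 4.84, 4.92 and 4.19 TPM in uninduced knockdown cells. In CPM the log2 difference was -1.41 (SE 0.18, adjusted p = 6.12e-05). In induced cells Zfp143 was at 11.2, 11.5 and 11.5 TPM with control siRNA and 11.1, 9.87 and 12.8 TPM with Zfp143 siRNA, which overlap (log2 difference -0.18, adjusted p = 0.646). The induced knockdown label therefore names the siRNA given, not a lower Zfp143 RNA level at harvest. All 8 markers of skeletal myoblasts were tested, and induction in control cells raised 7 and lowered 1 of them. The shares of all tested genes were 33.2% higher and 30.9% lower. Of 8 markers of differentiated muscle, 8 rose on induction in control cells, where their summed level lay between 3.18 and 4.99 TPM before and between 7899 and 8987 TPM after it. Of 5 tested fibroblast markers 4 rose and 1 fell. The fibroblast sums lay between 22 and 23.9 TPM before and between 687 and 773 TPM after induction. Sums of endothelial, leukocyte, neuronal and epithelial markers stayed between 0.562 and 35.6 TPM, with Tie1, Adgre1, Snap25, Rbfox3, Epcam and Krt5 at no count. Among these, epithelial sums went from between 1.37 and 1.91 TPM to between 7.73 and 8.96 TPM on induction in control cells. Of the 2 tested epithelial markers 1 was higher and 1 lower there. Leukocyte sums in uninduced cells were 22.4 to 25.3 TPM with control siRNA and 28.4 to 31.9 TPM with Zfp143 siRNA. There 2 of 4 tested markers were higher, beside 15.4% of all tested genes. The part of these markers in the Hox results was not tested. In bulk RNA, fewer cells of a type and less RNA per cell cannot be told apart. A pair of libraries stood apart: uninduced control replicate 3, with 6.02% mitochondrial counts, and induced knockdown replicate 1, with 1.95% and the lowest total.

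The Hoxa and Hoxd clusters show how differently the paralogs were used, and the 250 bases before the start sites of Hoxa10, Hoxa13, Hoxd10 and Hoxd13 are shown because each pair has the same paralog number in a cluster with many counts and in one with next to none. Sequences come from RefSeq on GRCm38.p6, 5′ to 3′ on the gene's strand, with CpG dinucleotides in capitals. The windows are chr6:52234940-52235189 (minus strand) for Hoxa10, chr6:52260881-52261130 (minus strand) for Hoxa13, chr2:74691641-74691890 (plus strand) for Hoxd10 and chr2:74667975-74668224 (plus strand) for Hoxd13. Hoxa10 has 2 starts in the table, and the one with more CpGs is shown.
Hoxa10: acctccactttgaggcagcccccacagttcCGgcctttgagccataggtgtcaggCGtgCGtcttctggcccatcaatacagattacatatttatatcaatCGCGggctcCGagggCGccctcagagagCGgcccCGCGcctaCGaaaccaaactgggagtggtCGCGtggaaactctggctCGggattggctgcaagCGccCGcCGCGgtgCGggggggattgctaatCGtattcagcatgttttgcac
Hoxa13: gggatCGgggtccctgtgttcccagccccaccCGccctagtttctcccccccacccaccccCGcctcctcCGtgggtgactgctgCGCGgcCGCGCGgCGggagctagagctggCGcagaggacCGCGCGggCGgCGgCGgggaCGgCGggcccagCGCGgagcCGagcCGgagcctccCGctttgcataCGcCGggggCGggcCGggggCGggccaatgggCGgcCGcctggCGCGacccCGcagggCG
Hoxd10: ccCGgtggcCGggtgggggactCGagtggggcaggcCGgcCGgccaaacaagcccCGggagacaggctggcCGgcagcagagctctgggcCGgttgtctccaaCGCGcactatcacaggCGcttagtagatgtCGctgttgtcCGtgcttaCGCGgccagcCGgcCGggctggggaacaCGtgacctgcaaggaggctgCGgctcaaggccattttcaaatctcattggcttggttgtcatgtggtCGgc
Hoxd13: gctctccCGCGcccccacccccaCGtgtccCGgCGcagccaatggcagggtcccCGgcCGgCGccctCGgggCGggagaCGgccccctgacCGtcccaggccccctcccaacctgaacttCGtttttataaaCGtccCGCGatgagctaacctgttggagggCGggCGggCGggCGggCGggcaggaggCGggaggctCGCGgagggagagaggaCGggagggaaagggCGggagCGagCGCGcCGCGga
These windows hold 20 CpGs in Hoxa10, 20 in Hoxd10, 35 in Hoxa13 and 31 in Hoxd13, against a median of 6 over the 32851 promoters of the table. The GC content was 59.2% in Hoxa10, 65.6% in Hoxd10, 80% in Hoxa13 and 74.4% in Hoxd13.

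The table holds promoters for 22 of the 39 genes (9 of 11 in Hoxa, 9 of 9 in Hoxd, 3 in Hoxb and 1 in Hoxc), fewer than the 80% that a statement over all the genes would need. Between Hoxa and Hoxd the ranges overlapped: 3 to 35 CpGs with a median of 15.5 over 10 Hoxa windows, and 2 to 31 with a median of 12.5 over 10 Hoxd windows. The letters ACTACAA, part of the sequence known to bind the human counterpart of Zfp143, were searched on both strands of the full 300-base windows. They occurred in 0 of the 24 Hox windows and in 3.24% of all promoters in the table. No match says only that these letters are not in these windows.

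Expression was almost confined to the Hoxa and Hoxc clusters in all 12 libraries. All 9 Hoxc genes and 10 of 11 Hoxa genes reached a group mean of 1 TPM in at least 1 of the 4 groups, as did 4 of 10 Hoxb genes and 0 of 9 Hoxd genes, 23 in all. The same number, 23, passed the filter on low counts: 10 Hoxa genes, 4 Hoxb genes (Hoxb3, Hoxb4, Hoxb5 and Hoxb6) and all 9 Hoxc genes. At 0.5 TPM the count of expressed genes was 24 and at 2 TPM it was 19.

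**Figure D1:**
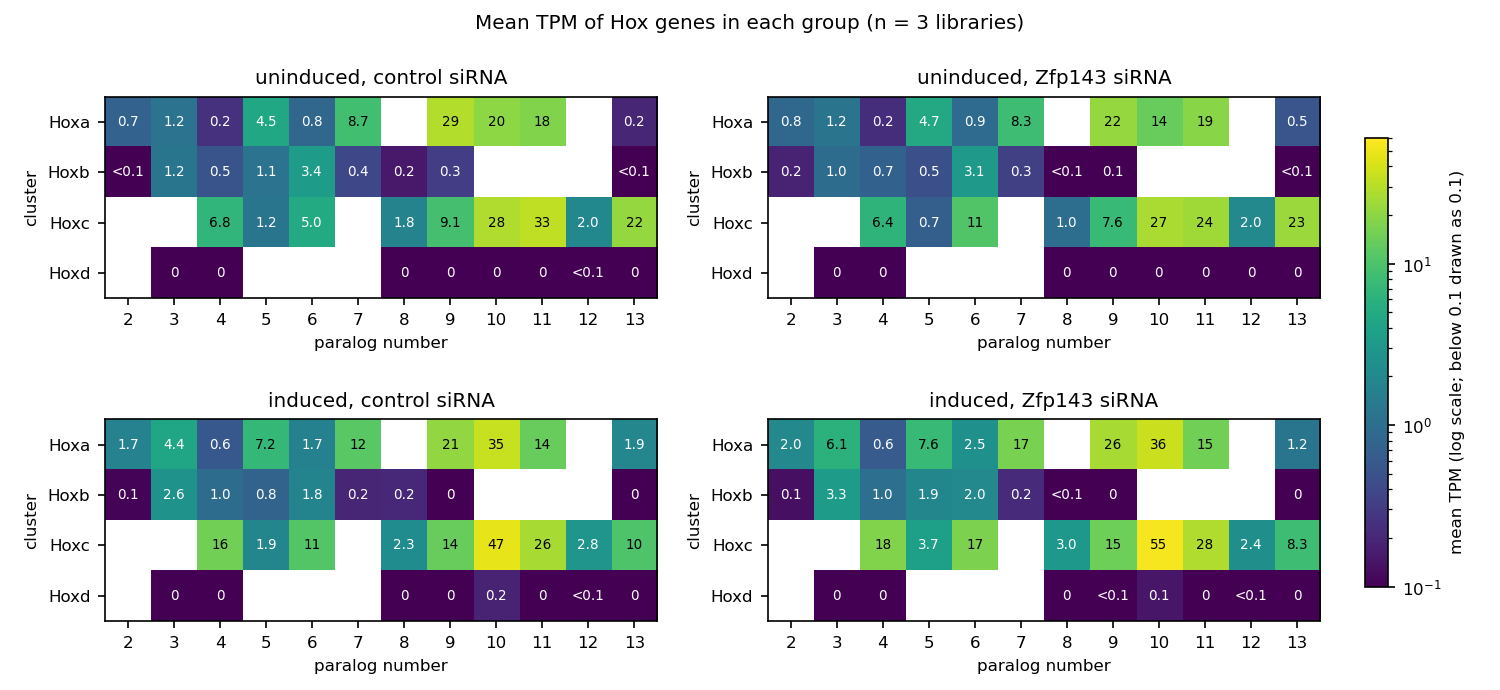
Mean TPM of the Hox genes of paralog numbers 2 to 13 in the 4 groups (n = 3 libraries each), arranged by cluster (rows) and paralog number (columns); the colour scale is logarithmic, white squares have no gene in the mouse, and 0 marks genes without a count in that group. The Hoxd row is empty or nearly so, and Hoxc10, Hoxc11, Hoxa9 and Hoxa10 are among the 6 highest genes of every group.

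Hoxd was the cluster with next to no counts. Hoxd1, Hoxd3, Hoxd4, Hoxd8, Hoxd11 and Hoxd13 had no count in any library, and a count of 0 allows up to 3 counts, 0.157 to 0.222 CPM depending on the library (counting error only). Hoxd9 had 1 count in all and Hoxd12 had 6, at most 3 in a library. Hoxd10, a paralog of the abundant Hoxa10 and Hoxc10, had 0 counts in each of the 6 uninduced libraries, 7, 2 and 1 in induced control cells and 3, 0 and 3 in induced knockdown cells. Its counts were thus seen only in induced libraries, in 5 of 6 of them. Without the filter on low counts the increase on induction passed the test in control cells (adjusted p = 0.0306) and not in knockdown cells (adjusted p = 0.0771). In that fit 31.1% and 31.6% of 33071 genes were called. Hoxd10 is described for this pattern of counts, so a test on the same counts restates the pattern. Haglr, a noncoding RNA of the Hoxd cluster, and Evx2, the homeobox gene beside Hoxd13, had no count either. The lack of counts covers poly(A) RNA at this depth.

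In Hoxb, 6 of 10 genes were not tested. Hoxb1 had 1 count in all 12 libraries together and Hoxb13 had 2, while Hoxb2 had 19, Hoxb7 46 and Hoxb8 39, with no more than 9 in a library. Hoxb9 had 10, 11 and 6 counts in uninduced control cells, 1, 4 and 4 in uninduced knockdown cells and 0 in all 6 induced libraries. It was the reverse of Hoxd10, with counts in every uninduced and no induced library. Without the filter its decrease on induction passed the test in control cells (adjusted p = 6.85e-05) and knockdown cells (adjusted p = 0.0123), and the effect of knockdown in uninduced cells did not (adjusted p = 0.285). In that fit 31.1%, 31.6% and 15.3% of 33071 genes were called, in the same order. Hoxb9 too is described for its pattern of counts, which the test on induction restates. Hoxa4 was not tested. It had 66 counts in all, between 2 and 11 in each library, although its neighbours Hoxa3 and Hoxa5 were tested.

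Summed over its genes, Hoxc gave 54% ± 2.81 (SD, n = 3) of the Hox TPM in uninduced control cells, 56.6% ± 0.682 in uninduced knockdown cells, 55% ± 2.64 in induced control cells and 54.7% ± 1.28 in induced knockdown cells. Hoxa gave 42.6% ± 3.54, 40.1% ± 0.183, 42.1% ± 2.87 and 42.1% ± 1.06 in the same order. Hoxb gave 3.45% ± 0.734, 3.31% ± 0.501, 2.8% ± 0.22 and 3.16% ± 0.301. The ranges of the Hoxb and Hoxc shares overlapped among all 4 groups. Those of Hoxa did so except in knockdown cells, where they lay between 39.9% and 40.3% before and between 41% and 43.1% after induction. The summed Hox TPM was 233, 230 and 135 in uninduced control cells, 168, 187 and 188 in uninduced knockdown cells, 237, 226 and 251 in induced control cells and 302, 261 and 259 in induced knockdown cells. In CPM the Hox sums were 282, 273 and 246 in uninduced and 253, 227 and 240 in induced control cells. In knockdown cells they were 259, 254 and 271 before and 302, 260 and 243 after induction. On this scale, used for the tests, the ranges before and after induction overlapped with both siRNAs. Uninduced control replicate 3 lay far below its group in TPM and less so in CPM, and induced knockdown replicate 1 above its own. These are the libraries that stand apart in mitochondrial share and depth. The part of these differences in the sums was not tested, and no test was run on a sum.

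**Figure D2:**
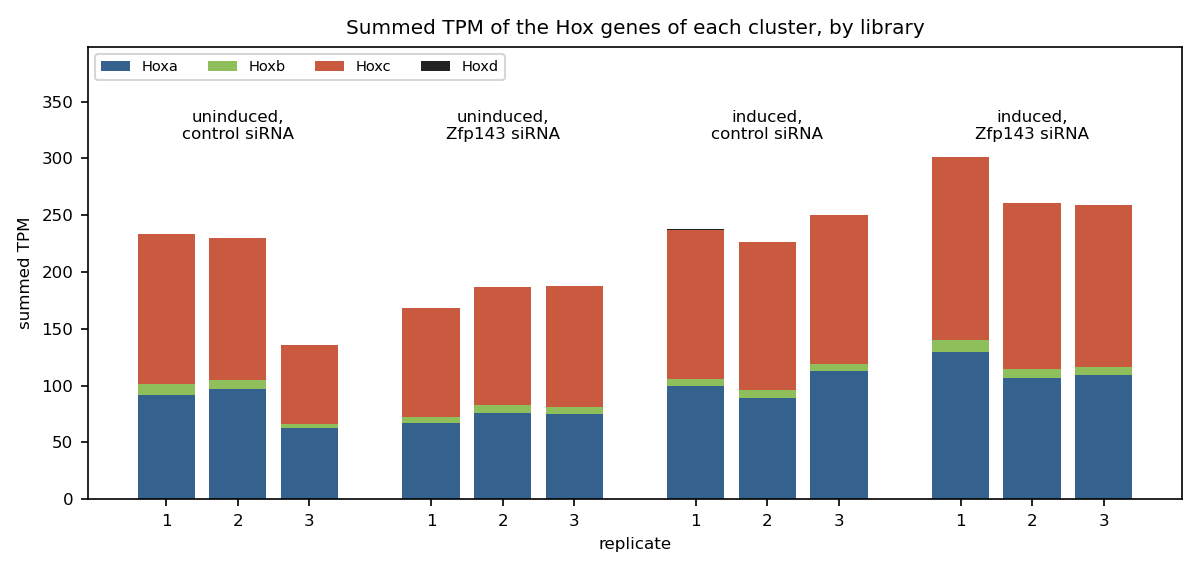
Summed TPM of the Hox genes of each cluster (stacked bars) in each of the 12 libraries, by group and replicate. Hoxa and Hoxc make up nearly all of each bar, Hoxd cannot be seen at this scale, and uninduced control replicate 3 is the lowest at 135 TPM.

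The sum was carried by a few posterior genes. Hoxc10, Hoxc11, Hoxa10 and Hoxa9 together gave 47.2% to 56.4% of the Hox TPM of a library. In uninduced control cells Hoxc11 led with 32.8 ± 9.47 TPM, followed by Hoxa9 (28.5 ± 6.5), Hoxc10 (28 ± 10.1), Hoxc13 (22 ± 5.92), Hoxa10 (20.4 ± 3.02) and Hoxa11 (17.8 ± 4.19). Neighbours in this order overlapped between libraries, and the next gene, Hoxc9 (9.09 ± 2.94), lay below the range of Hoxa11. In induced control cells the order changed at the top to Hoxc10 (47.4 ± 1.86), Hoxa10 (35.5 ± 5.06) and Hoxc11 (26.1 ± 1.99), with no overlap between these 3, while Hoxc13 was down at 10.4 ± 0.621 TPM.

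By paralog number, the shares of numbers 2, 3, 4 and 10 were higher and those of 9, 11 and 13 lower after induction in control cells, without overlap, and those of the other numbers overlapped. Paralogs of number 10 went from 24.3% ± 0.618 of the Hox TPM in uninduced to 34.9% ± 0.54 in induced control cells. Those of number 9 went from 19.1% ± 0.732 to 14.5% ± 1.3, those of number 11 went from 25.4% ± 1.01 to 16.7% ± 0.648, and those of number 13 from 11.1% ± 0.256 to 5.19% ± 0.618. Number 3 went from 1.19% ± 0.0648 to 2.95% ± 0.188, and number 4 from 3.67% ± 0.968 to 7.16% ± 0.465. In knockdown cells number 10 went from 22.3% ± 1.67 to 33.4% ± 3.83, number 9 from 16.3% ± 0.521 to 14.6% ± 1.12, which overlap, number 11 from 23.8% ± 1.59 to 15.8% ± 0.845 and number 13 from 13.1% ± 0.526 to 3.5% ± 0.605. The shares were described and not tested.

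Gene by gene, induction in control cells changed 12 of the 23 tested Hox genes at an adjusted p under 0.05, 7 higher and 5 lower, beside 64.1% of all tested genes. The share of Hox genes called, 52.2%, was thus below that of all genes, of which 33.2% were higher and 30.9% lower. The median log2 fold change was 0.28 over the tested Hox genes and 0.03 over all tested genes. In knockdown cells 12 were called, 9 higher and 3 lower, beside 66.1% of all tested genes (36% higher, 30.1% lower), with medians of 0.40 and 0.10. Scaling by library size alone moved the median of all genes to 0.21 in control and 0.35 in knockdown cells. It changed the direction of no called Hox gene, and Hoxa9 in knockdown cells, not called, went from -0.23 to 0.02. Each fold change within an siRNA compares the libraries of that siRNA. The filter, the scaling and the estimate of the spread came from all 12 libraries together, so the tests with both siRNAs are not independent.

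**Figure D3:**
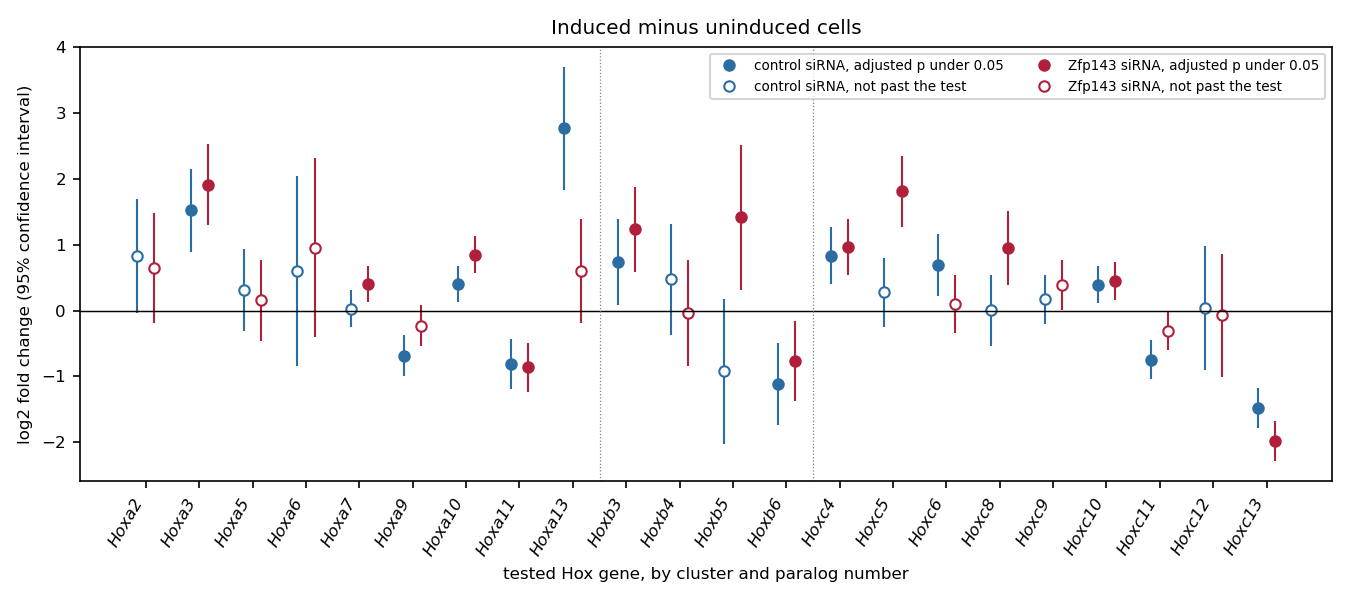
Log2 fold change on induction (induced minus uninduced) of 22 tested Hox genes with 95% confidence intervals, in control cells (blue) and knockdown cells (red); filled points passed the test at an adjusted p under 0.05. Hoxa11, Hoxb6 and Hoxc13 lie below 0 in both, Hoxa3, Hoxb3, Hoxc4, Hoxa10 and Hoxc10 above 0 in both.

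Anterior and trunk genes, a grouping made after the values were seen, mostly rose where they passed the test. In control cells 2 of 4 tested genes of numbers 1 to 3 were higher. Of 10 of numbers 4 to 8, 2 were higher and 1 lower, beside 33.2% and 30.9% of all tested genes. In knockdown cells 2 of the 4 were higher, and 5 of the 10 were higher and 1 lower, beside 36% and 30.1%. Hoxa3, which patterns the pharyngeal region of the neck, was at 1.63, 1.92 and 1.77 CPM in uninduced and 5.31, 5.22 and 4.83 CPM in induced control cells. The groups were apart by more than their ranges (log2 fold change 1.52, SE 0.30, adjusted p = 0.000342). In knockdown cells it went from 2.05, 1.3 and 2.32 CPM to 10.6, 6.14 and 4.85 CPM (1.92, SE 0.29, adjusted p = 3.94e-05), the highest value being that of replicate 1. In GENCODE M21, Hoxa3 shares 482 exon bases with Gm28308 on the same strand. On the opposite strand it shares 503 with Hoxaas2, 437 with Gm29430, 297 with Hoxaas3 and 292 with 5730596B20Rik. The library kit did not mark strand, so reads of shared bases cannot be told apart. Over the 12 libraries Hoxa3 had 865 counts, and these RNAs had 60.1, 57.1, 10, 283 and 138 in the same order. Hoxc4, a gene of the neck and forelimb level, was at 12.5, 8.29 and 6.57 CPM in uninduced and 16.4, 15 and 17.5 CPM in induced control cells. It was higher in all induced libraries (0.83, SE 0.20, adjusted p = 0.00201), also in knockdown cells, where it went from 9.3, 9.09 and 9.44 CPM to 21.5, 17.8 and 15.3 CPM (0.97, SE 0.20, adjusted p = 0.000614).

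Hoxb3, which acts in the hindbrain and neck, was at 2.61, 1.81 and 1.97 CPM in uninduced and 4.27, 3.06 and 3.36 CPM in induced control cells (0.74, SE 0.31, adjusted p = 0.0459). That call was the weakest: it was lost without uninduced control replicate 2 (adjusted p = 0.140) or 3 (0.0964), without any of the uninduced knockdown libraries (0.0572 to 0.0589) or induced control libraries (0.0514 to 0.162), or without induced knockdown replicate 2 (0.0571). In knockdown cells Hoxb3 went from 1.77, 2.13 and 2.03 CPM to 6.97, 4.31 and 2.8 CPM (1.23, SE 0.31, adjusted p = 0.00244). Hoxb3 shares 2250 exon bases with Hoxb3os on the opposite strand in GENCODE M21, and since the library kit did not mark strand their reads cannot be told apart. Hoxb3os was low, with 175 counts over the 12 libraries.

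Hoxc6, a gene of the thoracic region, was at 6.74, 3.95 and 4.4 CPM in uninduced and 7.6, 9.06 and 7.71 CPM in induced control cells, with every induced library higher (0.69, SE 0.22, adjusted p = 0.0131). The call was lost without uninduced control replicate 2 (adjusted p = 0.0686) or induced control replicate 2 (0.0543). In knockdown cells, where it started higher, it was at 12.5, 9.92 and 12.1 CPM before and 15.7, 10.5 and 10.9 CPM after induction, which overlap (0.10, SE 0.21, adjusted p = 0.685). Hoxb6 went the other way in both: it was at 3.48, 3.18 and 1.84 CPM in uninduced and 1.09, 1.58 and 1.26 CPM in induced control cells (-1.12, SE 0.29, adjusted p = 0.00376) and went from 2.74, 3.37 and 3.05 CPM to 1.73, 1.44 and 2.2 CPM in knockdown cells (-0.77, SE 0.29, adjusted p = 0.0276). The latter call was lost without uninduced knockdown replicate 2 (0.0756) or 3 (0.0562) and without induced knockdown replicate 1 (0.0577) or 2 (0.104), as well as with library size as the only scaling (0.163) or no filter on low counts (0.0648). Hoxa6, the remaining paralog of that number, was at most at 1.79 CPM and passed the test in neither.

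Hoxc5, Hoxc8 and Hoxa7, genes of the trunk, passed the test on induction in knockdown cells and not in control cells. The difference between the siRNAs, tested as the interaction, passed for Hoxc5 and not for Hoxc8 (0.95, adjusted p = 0.0762) or Hoxa7 (0.38, adjusted p = 0.160). Hoxc5 was at 3.15, 1.87 and 1.97 CPM in uninduced and 2.76, 2.69 and 3.04 CPM in induced control cells, ranges that overlap (0.28, SE 0.25, adjusted p = 0.341). In knockdown cells it was at 1.31, 1.24 and 1.81 CPM before and 5.31, 5 and 5.05 CPM after induction, well apart (1.81, SE 0.25, adjusted p = 1.64e-05). Hoxc8, a thoracic gene, was at 2.5, 2.2 and 2.36 CPM before and 2.86, 1.74 and 2.47 CPM after induction in control cells (0.00, SE 0.25, adjusted p = 0.996). With Zfp143 siRNA it went from 1.54, 1.36 and 1.47 CPM to 3.25, 2.23 and 3 CPM (0.95, SE 0.26, adjusted p = 0.00518), with no overlap. Hoxa7 was at 12.8, 12.2 and 13.1 CPM before and 13.2, 11.9 and 13.6 CPM after induction in control cells (0.03, SE 0.13, adjusted p = 0.863) and at 13, 12.8 and 12.8 CPM before and 18.9, 16.7 and 15.5 CPM after in knockdown cells (0.40, SE 0.13, adjusted p = 0.0125).

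Hoxa5 and Hoxc9 were at 5 TPM or more and passed the test in no comparison. Hoxa5, which acts in the neck, lung and forelimb girdle, was at 5.71, 5.54 and 2.3 CPM in uninduced control, 6.39, 4.37 and 5.37 in uninduced knockdown, 6.09, 4.64 and 6.3 in induced control and 7.64, 4.9 and 5.55 in induced knockdown cells. The ranges of the 4 groups overlapped, and uninduced control replicate 3 was the lowest of the 12 libraries. Hoxc9, a gene of the thoracic to lumbar level, was at 15.8, 15.6 and 12.2 CPM, 12.6, 12.2 and 14.5 CPM, 18.1, 16.3 and 14.6 CPM and 21.2, 17.3 and 13.2 CPM in the same order. In knockdown cells its fold change on induction was 0.39, SE 0.18, adjusted p = 0.0654.

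Among the posterior genes of control cells, Hoxa10, Hoxc10 and Hoxa13 rose and Hoxa9, Hoxa11, Hoxc11 and Hoxc13 fell. Hoxa10, a gene of the lumbar level and the upper hindlimb, was at 22.7, 23.1 and 25.6 CPM in uninduced and 34.3, 26.1 and 34 CPM in induced control cells (0.41, SE 0.13, adjusted p = 0.0128). All induced values were above all uninduced ones, though the lowest, replicate 2, only just; the call was lost without induced control replicate 1 (adjusted p = 0.0642) or 3 (0.0597). In knockdown cells Hoxa10 went from 16.3, 18.1 and 17.5 CPM to 30.0, 32 and 31.2 CPM (0.85, SE 0.13, adjusted p = 4.80e-05), also apart; the difference between the siRNAs did not pass the test (0.44, adjusted p = 0.1004). Hoxc10, linked to the hindlimb in development, was at 40.5, 38.8 and 28.7 CPM in uninduced and 49.3, 49.3 and 43.4 CPM in induced control cells (0.39, SE 0.13, adjusted p = 0.0174). The lowest of the uninduced values was that of replicate 3; without it the fold change was 0.25 (adjusted p = 0.0573), and the call was also lost without induced control replicate 1 (0.0596) or 2 (0.0608). In knockdown cells Hoxc10 went from 36.5, 40.5 and 36.8 CPM to 53, 52.1 and 50.1 CPM (0.45, SE 0.13, adjusted p = 0.00808), again with no overlap. Hoxc10 shares 166 exon bases with Hoxc5 on the same strand in GENCODE M21, so estimated counts of this pair rest on how reads were divided between them.

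Hoxc13, the most posterior gene of its cluster and known for its role in hair and nails, had the largest decrease of the 23 genes with both siRNAs. It was at 35.8, 32.9 and 29.8 CPM in uninduced and 12.9, 12.1 and 10.4 CPM in induced control cells (-1.48, SE 0.14, adjusted p = 3.92e-07), and at 35.4, 37.2 and 38.3 CPM before and 10.6, 7.67 and 9.81 CPM after induction in knockdown cells (-1.98, SE 0.15, adjusted p = 2.20e-08). No induced library came near an uninduced one. Hoxc11 was at 46.9, 46.4 and 39.8 CPM in uninduced and 29.2, 24.6 and 25.6 CPM in induced control cells (-0.75, SE 0.14, adjusted p = 0.000213), also apart. In knockdown cells it was at 36.3, 30.1 and 38.2 CPM before and 31.1, 28.6 and 24.8 CPM after induction, which overlap (-0.31, SE 0.14, adjusted p = 0.0579).

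Hoxa11, which patterns the forearm and shank and the uterus, was at 25.6, 28.9 and 27 CPM in uninduced and 15.7, 16.7 and 14 CPM in induced control cells (-0.82, SE 0.18, adjusted p = 0.000963). In knockdown cells it went from 29.6, 29.3 and 33.8 CPM to 23.1, 14.9 and 13.2 CPM (-0.87, SE 0.18, adjusted p = 0.000583), and replicate 1 was the highest of the induced values. Hoxa11 shares 800 exon bases with its antisense RNA Hoxa11os, which was itself lower on induction in control cells (log2 fold change -0.44, SE 0.18, adjusted p = 0.0408), and without strand the reads of these overlapping genes cannot be told apart. Hoxa9 was at 35.6, 38.1 and 40.9 CPM in uninduced and 25.2, 18 and 28 CPM in induced control cells (-0.69, SE 0.15, adjusted p = 0.000832), with no overlap. In knockdown cells it was at 31.6, 33.7 and 33.6 CPM before and 27.4, 29.9 and 26.8 CPM after induction, which do not overlap either, and the test was not passed (-0.23, SE 0.15, adjusted p = 0.175). The interaction did not pass for Hoxa9 (0.45, adjusted p = 0.134), Hoxc11 (0.44, adjusted p = 0.120) or Hoxc6 (-0.59, adjusted p = 0.185), which were called on induction in control cells alone.

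Hoxa13, the gene of the hand and foot plate and the hindgut, moved against the other genes of numbers 11 to 13 that were called. It was at 0.217, 0.165 and 0.46 CPM in uninduced and 1.93, 2.16 and 1.63 CPM in induced control cells, the largest increase among the 23 tested Hox genes (2.77, SE 0.44, adjusted p = 3.06e-05). The uninduced values are close to what 3 counts are worth. In TPM, it went from 0.198 ± 0.0642 to 1.92 ± 0.33, so it stayed a minor gene beside Hoxc13. In knockdown cells it was at 0.913, 0.59 and 0.848 CPM before and 0.863, 1.39 and 1.3 CPM after induction (0.60, SE 0.37, adjusted p = 0.161).

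**Figure D4:**
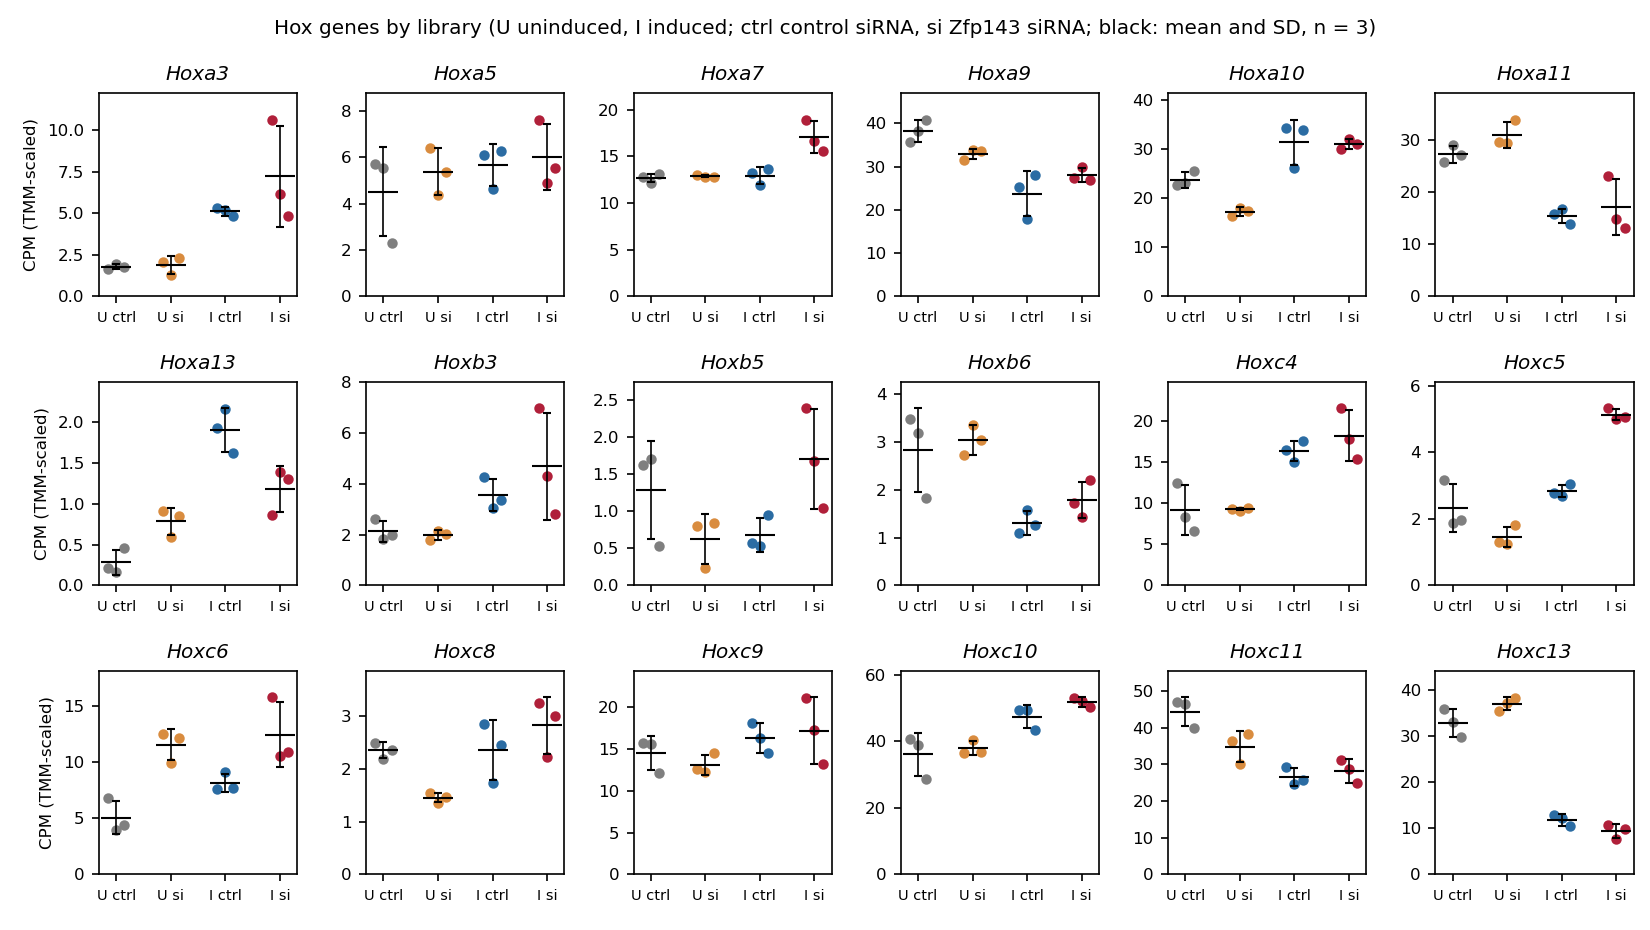
TMM-scaled CPM in each library for the 18 Hox genes that passed a test or reached a group mean of 5 TPM; points are libraries, the black line and bar the group mean and SD (n = 3), and each panel has its own linear axis from 0. Hoxc13, Hoxa11 and Hoxb6 fall on induction with both siRNAs, and Hoxc6 is higher with Zfp143 siRNA in uninduced cells.

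Genes were also counted by place along the clusters, in blocks of paralog numbers drawn after the values were seen. Induction in control cells raised 2 of 4 tested genes of numbers 1 to 3. It raised 2 and lowered 1 of 10 of numbers 4 to 8, and raised 2 and lowered 1 of 4 of numbers 9 and 10. Of 5 of numbers 11 to 13 it raised 1 and lowered 3. Over all tested genes 33.2% were higher and 30.9% lower, and no test was run on the blocks. Hoxa2, Hoxa6, Hoxb4 and Hoxc12 were tested, were not called in any comparison and stayed under 5 TPM; they lay between 0.217 and 2.15 CPM.

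Knockdown in uninduced cells changed few Hox genes. Of the 23, 3 were called, Hoxc6 and Hoxa13 higher and Hoxa10 lower, beside 32.5% of all tested genes (15.4% higher, 17.1% lower). The median log2 difference was 0.09 over the Hox genes and -0.04 over all tested genes. Uninduced control replicate 3 weighs on this comparison: without it 7 genes were called, among them the 3 above, beside 37.2% of all tested genes. Of the added genes, Hoxb5 (log2 difference -1.39, adjusted p = 0.0344), Hoxc5 (-0.78, 0.0409) and Hoxc11 (-0.41, 0.0235) were lower. Without uninduced knockdown replicate 1 only 1 was called, Hoxc6, beside 22.5% of all tested genes.

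Hoxc6 was at 6.74, 3.95 and 4.4 CPM with control siRNA and 12.5, 9.92 and 12.1 CPM with Zfp143 siRNA, with every knockdown library above every control library (1.19, SE 0.22, adjusted p = 0.000895). The call held in each alternative run, with log2 differences of 1.04 to 1.47. Hoxa10 was at 22.7, 23.1 and 25.6 CPM with control siRNA and 16.3, 18.1 and 17.5 CPM with Zfp143 siRNA (-0.46, SE 0.13, adjusted p = 0.0153), lower in each knockdown library. Its call was lost without uninduced knockdown replicate 1 (adjusted p = 0.0677). Hoxa13 was at 0.217, 0.165 and 0.46 CPM with control siRNA and 0.913, 0.59 and 0.848 CPM with Zfp143 siRNA (1.50, SE 0.46, adjusted p = 0.018), apart but at few counts. Its call was lost without uninduced control replicate 1 (0.0594) or 2 (0.0819) and without uninduced knockdown replicate 1 (0.0631) or 3 (0.0537).

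**Figure D5:**
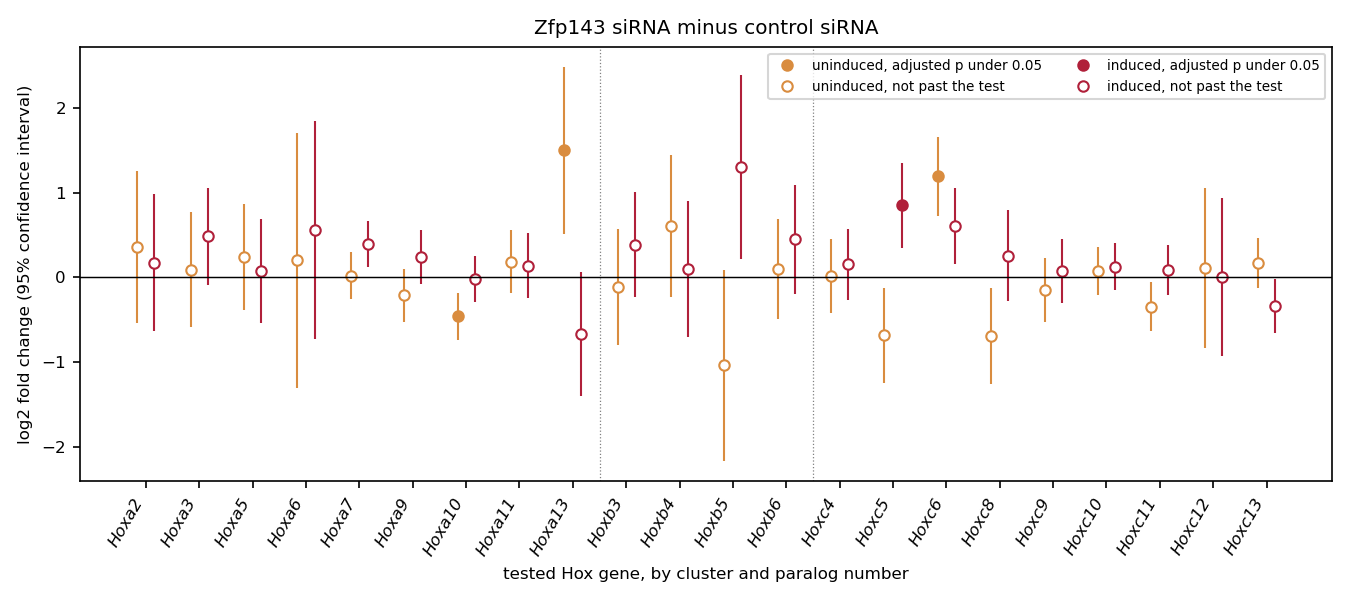
Log2 difference between Zfp143 siRNA and control siRNA for 22 tested Hox genes with 95% confidence intervals, in uninduced (orange) and induced (red) cells; filled points passed the test at an adjusted p under 0.05. Hoxc6 and Hoxa13 lie above 0 and Hoxa10 below 0 among the filled points of uninduced cells, and Hoxc5 is the filled point of induced cells.

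In induced cells 1 of the 23 Hox genes was called, Hoxc5, beside 9.49% of all tested genes (3.73% higher, 5.77% lower). The median log2 difference was 0.17 over the Hox genes and -0.03 over all tested genes. Hoxc5 was at 2.76, 2.69 and 3.04 CPM with control siRNA and 5.31, 5 and 5.05 CPM with Zfp143 siRNA, far apart for their spread (0.85, SE 0.23, adjusted p = 0.0308). The adjusted p rose to between 0.0692 and 0.123 when any of the 6 induced libraries was left out, where log2 differences were 0.82 to 0.91. Hoxa7, at 13.2, 11.9 and 13.6 CPM with control and 18.9, 16.7 and 15.5 CPM with Zfp143 siRNA, did not overlap between the siRNAs and just missed the threshold (0.40, SE 0.13, adjusted p = 0.0706), which it passed without uninduced control replicate 3 (0.0372). Hoxc6, at 7.6, 9.06 and 7.71 CPM with control and 15.7, 10.5 and 10.9 CPM with Zfp143 siRNA, likewise did not overlap (0.60, SE 0.21, adjusted p = 0.0969), and passed without uninduced control replicate 1 (0.0443). For both genes the library left out is an uninduced one, which is not part of this comparison. Without both libraries that stand apart neither passed (Hoxa7 0.32, adjusted p = 0.0830, and Hoxc6 0.40, adjusted p = 0.159). Hoxc13, at 12.9, 12.1 and 10.4 CPM with control and 10.6, 7.67 and 9.81 CPM with Zfp143 siRNA, had a difference of -0.34, SE 0.15, adjusted p = 0.215 and passed without both libraries that stand apart (-0.43, adjusted p = 0.0385). Muscle markers differed in the same comparison: 8 of 8 markers of differentiated muscle were lower with Zfp143 siRNA, with a summed level of 2666 to 3386 TPM against 7899 to 8987 TPM. So were 3 of 5 fibroblast markers (sums of 416 to 528 TPM against 687 to 773 TPM) and 3 of 8 myoblast markers. Their part in the Hox differences was not tested.

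The effect of the siRNA differed between uninduced and induced cells for 3 of the 23 Hox genes, beside 22.5% of all tested genes. Of all tested genes 10.6% had a more positive effect in induced cells and 11.8% a more negative one. Zfp143 RNA was lower with its siRNA in uninduced cells and overlapped the control in induced cells. The part of that in these differences was not tested. For Hoxc5 the siRNA effect was -0.68, SE 0.26, adjusted p = 0.0582 in uninduced and 0.85, SE 0.23, adjusted p = 0.0308 in induced cells, and their difference was 1.53, SE 0.35, adjusted p = 0.00603. For Hoxa13 the difference was -2.17, SE 0.57, adjusted p = 0.0121, from an effect of 1.50 in uninduced to -0.67 in induced cells. Both were called in each alternative in which an interaction was fitted. Hoxa13 had only 14 counts in uninduced control cells, and Hoxc5 shares 166 exon bases with Hoxc10 on the same strand.

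For Hoxb5 the difference between the siRNA effects was 2.34, SE 0.73, adjusted p = 0.0309. Hoxb5 was at 1.63, 1.7 and 0.526 CPM in uninduced control, 0.799, 0.236 and 0.848 in uninduced knockdown, 0.572, 0.527 and 0.944 in induced control and 2.39, 1.68 and 1.05 in induced knockdown cells. The lowest uninduced control value was that of replicate 3 and the highest induced knockdown value that of replicate 1, the libraries that stand apart. Without both the difference was 2.39 (adjusted p = 0.00819). The call was lost without uninduced control replicate 1 (0.0632) or 2 (0.0791), uninduced knockdown replicate 2 (0.0619), induced control replicate 1 (0.0740) or 2 (0.0740), or induced knockdown replicate 1 (0.0645) or 2 (0.0532). On induction in knockdown cells Hoxb5 rose (1.41, SE 0.52, adjusted p = 0.0245), and this did not hold without uninduced knockdown replicate 2 (0.0980) or induced knockdown replicate 1 (0.0964). Its overlapping antisense RNA, Hoxb5os, was also higher on induction in knockdown cells (1.47, SE 0.62, adjusted p = 0.0409). Hoxb5os was lower with Zfp143 siRNA in uninduced cells (-1.84, SE 0.61, adjusted p = 0.0257). There Hoxb5 itself was not called (-1.04, SE 0.53, adjusted p = 0.145). Both calls of Hoxb5os were lost without uninduced knockdown replicate 2 (adjusted p 0.0913 for the siRNA in uninduced cells and 0.151 for induction in knockdown cells). Hoxb5 and Hoxb5os share 100 exon bases on opposite strands in GENCODE M21, and their reads there cannot be told apart.

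The average transcript length used for the TPM moved little: for 20 of the 23 tested Hox genes the highest and lowest group mean differed by less than 1.1 times. The exceptions were Hoxb6 (1127 to 1607 bases), Hoxc12 (585 to 712) and Hoxa9 (1729 to 2027). With these lengths as an offset in the fit, Hoxa9 passed the test on induction in knockdown cells too (-0.40, adjusted p = 0.0312).

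Hox proteins bind DNA with cofactors of the TALE homeodomain family. Of 11 genes listed as cofactors or their binding partners, 10 were tested, and induction in control cells raised 5 and lowered 4 of them, beside 33.2% of all tested genes higher and 30.9% lower. The median log2 fold change was 0.18. Meis2, a cofactor that helps hold Hox proteins on DNA, was at 139, 143 and 126 CPM in uninduced and 35.5, 31.7 and 35.6 CPM in induced control cells (log2 fold change -1.99, SE 0.11, adjusted p = 8.86e-10), and Meis1 was at 40.9, 42.5 and 46 CPM before and 15.2, 15.5 and 17.3 CPM after (-1.43, SE 0.12, adjusted p = 1.18e-07). Both fell, with no overlap between the groups. Pbxip1, which binds Pbx proteins, rose by 1.68 (SE 0.16, adjusted p = 3.15e-07) and Pknox2 by 1.62 (SE 0.20, adjusted p = 5.28e-06).

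With Zfp143 siRNA in uninduced cells 5 of the 10 were lower and 0 higher, with a median of -0.14, beside 17.1% of all tested genes lower and 15.4% higher. Meis2 was at 53.4, 60.8 and 59.4 CPM (-1.23, SE 0.11, adjusted p = 1.88e-06) and Meis1 at 21, 23.7 and 18.8 CPM (-1.03, SE 0.12, adjusted p = 3.07e-05), in both cases between the uninduced control and the induced control levels. Without both libraries that stand apart 3 were higher and 5 lower, beside 22.8% and 23.4% of all tested genes. In induced cells Meis2 was at 31.7, 32.6 and 35.8 CPM and Meis1 at 17.5, 17.1 and 16.2 CPM with Zfp143 siRNA, overlapping the control siRNA. The siRNA effect differed between uninduced and induced cells for Meis2 (1.20, SE 0.16, adjusted p = 9.46e-05) and Meis1 (1.11, SE 0.18, adjusted p = 0.000484). In knockdown cells induction raised 4 and lowered 4 of the 10, beside 36% higher and 30.1% lower of all tested genes. Scaled by library size alone, it raised 6 and lowered 2, beside 43.9% and 22.4%.

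Of the regulators that act on Hox chromatin, all 31 listed Polycomb genes were tested, and induction in control cells raised 9 and lowered 15 (median -0.35), beside 33.2% higher and 30.9% lower of all tested genes. Cbx2, a reader of the Polycomb mark on histone H3, had a log2 fold change of -1.96 (SE 0.15, adjusted p = 3.96e-08) while Cbx7, another reader, rose by 1.98 (SE 0.25, adjusted p = 4.90e-06). Knockdown in uninduced cells raised 4 and lowered 4, a smaller share than the 32.5% of all tested genes. In induced cells it raised 2, Phf19 (1.43, SE 0.20, adjusted p = 0.000241) and Ezh2, the enzyme that writes the mark (0.57, SE 0.14, adjusted p = 0.0171). Of 19 Trithorax genes and histone demethylases, knockdown in uninduced cells raised 0 and lowered 9 (median -0.35), beside 15.4% higher and 17.1% lower of all tested genes. Among them were Kmt2c, a histone methyltransferase (-1.48, SE 0.28, adjusted p = 0.00117), and Aff1, of the elongation machinery (-1.11, SE 0.15, adjusted p = 8.69e-05). Without both libraries that stand apart it lowered 14, beside 23.4% of all tested genes. Induction in control cells raised 1 and lowered 7 of the 19 (33.2% and 30.9% of all genes), and in knockdown cells raised 10 and lowered 4 (36% and 30.1%).

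Retinoic acid turns on Hox genes in the embryo. Of 18 genes of this pathway 11 were tested. Induction in control cells raised 6 and lowered 3 of them, beside 33.2% and 30.9% of all tested genes. Scaled by library size alone, it raised 6 and lowered 1, beside 38% and 24.3%. Rdh10, which makes the precursor of retinoic acid, rose by 2.26 (SE 0.13, adjusted p = 1.37e-09), and Cyp26b1, which degrades it, fell by 0.65 (SE 0.19, adjusted p = 0.00833). Knockdown in uninduced cells lowered 1, Dhrs3, a retinaldehyde reductase (-1.21, SE 0.19, adjusted p = 0.000252); without both libraries that stand apart it lowered 4, beside 23.4% of all tested genes.

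Of 21 other genes of limb and axial position, 10 were tested, and induction in control cells raised 6 and lowered 1, beside 33.2% and 30.9% of all tested genes. Tbx15, a factor of limb muscle and skeleton, rose by 2.13 (SE 0.13, adjusted p = 2.04e-09) and Prrx1, a limb mesenchyme factor, by 1.99 (SE 0.15, adjusted p = 2.38e-08). Tbx4, a factor of the hindlimb, was tested, with 1.79, 1.7 and 1.31 CPM in uninduced control cells. Tbx5, its counterpart in the forelimb, had 4 counts in all 12 libraries together, and Pitx1, another hindlimb factor, had none. None of the 8 ParaHox, Cdx and Evx genes, the nearest homeobox relatives of the Hox genes, passed the filter on low counts.

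The neighbours of the clusters and the noncoding RNAs within them were counted the same way. Of 24 genes flanking the clusters 22 were tested. Induction in control cells raised 2 and lowered 12 (median -0.35), beside 33.2% and 30.9% of all tested genes. Scaled by library size alone, it raised 4 and lowered 8, beside 38% and 24.3%. Calcoco1, beside Hoxc, rose by 1.05 (SE 0.11, adjusted p = 1.34e-06), and Hnrnpa3, near Hoxd, fell by 1.50 (SE 0.18, adjusted p = 4.43e-06). Knockdown in uninduced cells raised 1 and lowered 5 of them (15.4% and 17.1% of all tested genes), and 4 and 6 without both libraries that stand apart (22.8% and 23.4%). Of 17 noncoding RNAs of the clusters 6 were tested. Hotair, transcribed between Hoxc11 and Hoxc12 on the opposite strand, was at 7.5, 9.6 and 7.29 CPM in uninduced and 4.94, 6.11 and 5.82 CPM in induced control cells (-0.53, SE 0.17, adjusted p = 0.0108). Neither Hotair nor Hoxa11os was called when scaled by library size alone, nor was Hotair without uninduced control replicate 2 (0.0685) or Hoxa11os without replicate 3 (0.123). Hoxaas3, which shares 586 exon bases with Hoxa7 on the opposite strand, was at 1.72, 2.79 and 1.36 CPM in induced control and 0.598, 0.792 and 0.751 CPM in induced knockdown cells (-1.44, SE 0.40, adjusted p = 0.0312), against the direction of Hoxa7. That call was lost without any of the induced knockdown libraries (adjusted p 0.0829 to 0.0943), or without induced control replicate 1 (0.0614) or 2 (0.191).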

How the data were processed

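The table covers 12 poly(A) RNA-seq libraries of C2C12 cells in 4 groups of 3, with a library kit that did not mark strand. Per the submitters' processing notes, reads were handled with fastp 1.0.1, STAR 2.7.11b on GRCm39 and Salmon; no Salmon version or annotation release was found in the labels or the table. The deposited estimated counts and average effective lengths (bases, an other unit) are per gene and library, up to 7.26% of counts not being whole. The deposited TPM columns are treated as a score, since 535 repeated lines of the 78810 push their sums past the fixed TPM total. The authors' FPKM columns were not used. Libraries held 13520906 to 19068323 counts. The columns of replicates 2 and 3 of the induced knockdown group are named with transposed letters, and were matched by the rest of the name.

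Repeated lines were dropped. Counts were rounded and filtered with filterByExpr of edgeR (minimum count 10, minimum total 15). A model with 4 group means over 12 libraries (8 residual degrees of freedom, TMM scaling) was fitted to all 15030 genes with edgeR 4.0.16 in R 4.3.3 (estimateDisp, robust glmQLFit, glmQLFTest), and gave 5 comparisons. Adjusted p-values are Benjamini-Hochberg over all tested genes within each comparison, called at 0.05. CPM are scaled by TMM. The script was tested on simulated data. Alternatives used library size, DESeq2 1.42.0, limma-voom (limma 3.58.1), other filters, a length offset, a replicate block and leaving out libraries. Same-numbered libraries of different groups correlated at -0.0963 to 0.306 after group means were removed, and different-numbered ones at -0.279 to 0.249, so no pairing was taken.

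The members, lists and blocks were chosen with earlier results of these data known. Values in every library are given for Hox genes called in any comparison or with a group mean of 5 TPM, and of the lists up to 2 genes of smallest p per direction may be named; Tbx4, Tbx5, Pitx1, Haglr, Evx2, Hoxb9, Hoxd10 and the overlapping RNAs were named besides. Overlaps come from GENCODE M21 and promoters from RefSeq, both of an older build, and coordinates were not converted. Counts cover all the genes, and the values of 1 gene are not reported here.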

Additional observations from a re-analysis of the deposited data

Results flagged for a closer look

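The effect of the siRNA differed between induced and uninduced cells for 3 Hox genes, by edgeR's test of the difference itself. The log2 difference was 1.53 for Hoxc5 (adjusted p = 0.00603), -2.17 for Hoxa13 (adjusted p = 0.0121) and 2.34 for Hoxb5 (adjusted p = 0.0309). The Hoxb5 call was lost in 7 of 21 alternatives, each of them leaving out a library, and the others kept theirs. Hoxa13 had 14 counts in uninduced control cells. Estimated counts of Hoxc5 rest on how reads were divided between it and Hoxc10, with which it shares 166 exon bases. Zfp143 RNA was called lower with its siRNA in uninduced cells only, and the part of that in these differences was not tested.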

How the results depend on the processing

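None of the 31 Hox calls changed direction under any alternative. The same genes, with Hoxa5 and Hoxc9, had 59 fold changes that were not called, and 21 of these changed sign in at least 1. Among them was Hoxc6 on induction in knockdown cells (-0.10 without both libraries). With no low count filter Hoxa7 (adjusted p = 0.0872) and Hoxb6 (0.0648) lost their calls on induction in knockdown cells, and Hoxa10 (0.0632), Hoxc10 (0.0564) and Hoxb3 (0.0529, and 0.0621 with limma-voom) theirs in control cells. The count of Hox genes called for knockdown in uninduced cells (3) ranged from 1 to 7 when a library was left out. The share of all tested genes then ran from 22.5% to 37.2%. Without both libraries that stand apart the count was 7, beside 46.3% of all tested genes. For knockdown in induced cells (1) the count was 2 by library size scaling (8.73% of all tested genes) and by the DESeq2 Wald test (11.8%). It was 0 with no low count filter (4.59%) and 3 with the transcript length offset (10.7%). With a library left out it was 0 to 2 (5.83% to 13%), and without both libraries 2 (16.4%). For the interaction (3) it was 6 without both libraries, beside 37.3% of all tested genes. All other counts stayed within 1.5 times. Cluster shares were also recomputed without each library. Leaving out 1 of 3 libraries cannot move a group mean by 1 SD, so that check could not show whether the shares are stable. Of the 12 genes called on induction in control cells 8, and of the 12 in knockdown cells 9, kept their call in each alternative. With the replicate block the counts were 3 and 1 for knockdown in uninduced and induced cells, beside 34% and 9.99% of all tested genes. They were 12 and 13 for induction in control and knockdown cells (64.9% and 67.1%) and 3 for the interaction (23.7%). Hoxc11 joined on induction in knockdown cells (-0.31, adjusted p = 0.0473), and Hoxb5os was no longer called there. Causes were not tested. Depth limits the 16 Hox genes that were not tested, at most 11 counts a library.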
